A study of Mus musculus with 8 samples.

Results

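The nuclear genome supplies most protein subunits of respiratory complexes II to V and all of the electron carrier cytochrome c. A list of 42 such genes was followed here in the mouse heart after myocardial infarction: 4 of complex II, 9 of complex III, Cycs for cytochrome c, 14 of complex IV and 14 of complex V. Each gene was matched by the lengths of its exons and introns to 1 of 35299 loci, and all 42 found a locus. A locus that also holds exons of another gene cannot give the level of 1 gene, which left 38 members with a locus of their own, among 19186 loci tested. The 4 others were Uqcr11, which shares its locus with Mbd3, Cox7a1 with the non-coding gene Gm5113, Atp5d with Midn, and Atp5e with Prelid3b.

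Poly(A) RNA was sequenced from C57BL/6J hearts of mice 12 weeks old, 2 weeks after surgery. The tissue was the border zone of the heart after an infarct (MI, 4 animals) or the same region after sham surgery (Sham, 4 animals). The labels disagree on which animals had the infarct. Titles and the treatment field, used here, give the same 4 MI animals, but the source field of all 4 MI libraries names Sham, and the description names a sham infarct for MI replicates 1 to 3 and an infarct for Sham replicate 4. If the titles were exchanged, every direction given here would turn. In the libraries titled MI, Postn and Col1a1, genes of scar matrix, were higher without overlap, at 98308 ± 21169 against 5819 ± 1516 and 138516 ± 38934 against 15063 ± 5132 normalised reads (log2 differences 4.09 and 3.22, adjusted p = 1.1e-06 and 1.2e-05). The titles of the Sham libraries also mark them as a reanalysis, and whatever that step was cannot be told apart from infarction. Libraries held 108 to 161 M reads (M, mega) in Sham and 165 to 190.2 M reads in MI, so every MI library was deeper than every Sham library. The lowest count for any member in any library was 431 reads, for Cox4i2. Values are normalised reads per locus, which the authors scaled to 1 size factor per library, and levels are given as mean ± SD with n = 4.

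Complex II oxidises succinate in the citric acid cycle and passes its electrons to coenzyme Q. Complex III moves them on to cytochrome c, and complex IV hands them to oxygen. Complexes III and IV pump protons across the inner mitochondrial membrane, and complex V, the ATP synthase, uses the return flow to make ATP. Cardiac muscle depends on this chain for its contraction and holds muscle forms of some complex IV subunits, encoded by genes separate from those of the forms found in most tissues.

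Of the 38 members, 35 were lower in MI, 0 were higher and 3 did not pass the test. The test was limma with an intensity trend on log2(value + 1), adjusted over all tested loci by Benjamini-Hochberg with a threshold of 0.05. Across all tested loci 20.1% were called lower and 20.8% higher. A class of abundant loci, those averaging 10000 normalised reads or more, was added after the data were seen because 36 of the 38 members lie in it. It holds 2075 loci, of which 44.1% were called lower. The median log2 difference (MI minus Sham) was -0.55 over the 38 members, -0.02 over all tested loci and -0.20 over the abundant loci. The 35 called members stood at 57.7% to 75.5% of their Sham mean. In each of these 35 the 4 MI libraries all lay below the 4 Sham libraries, a pattern without overlap found in 20.0% of all tested loci.

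The scale matters for these counts. When libraries were scaled to their total reads, the median of all loci shifted by 0.31 and 27 members were lower and 2 higher, and when scaled to the total outside the mitochondrial genome the shift was 0.19 and 34 members were lower. Over all loci those scalings gave 1493 lower against 8569 higher, and 2142 against 6389, in place of 3855 against 3999. Relative to the median of all loci, the median of the members was -0.53 under all 3 scalings. Scaling by 1 factor per library moves all loci nearly alike, so this value stays the same by construction and says nothing on stability.

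**Figure D1:**
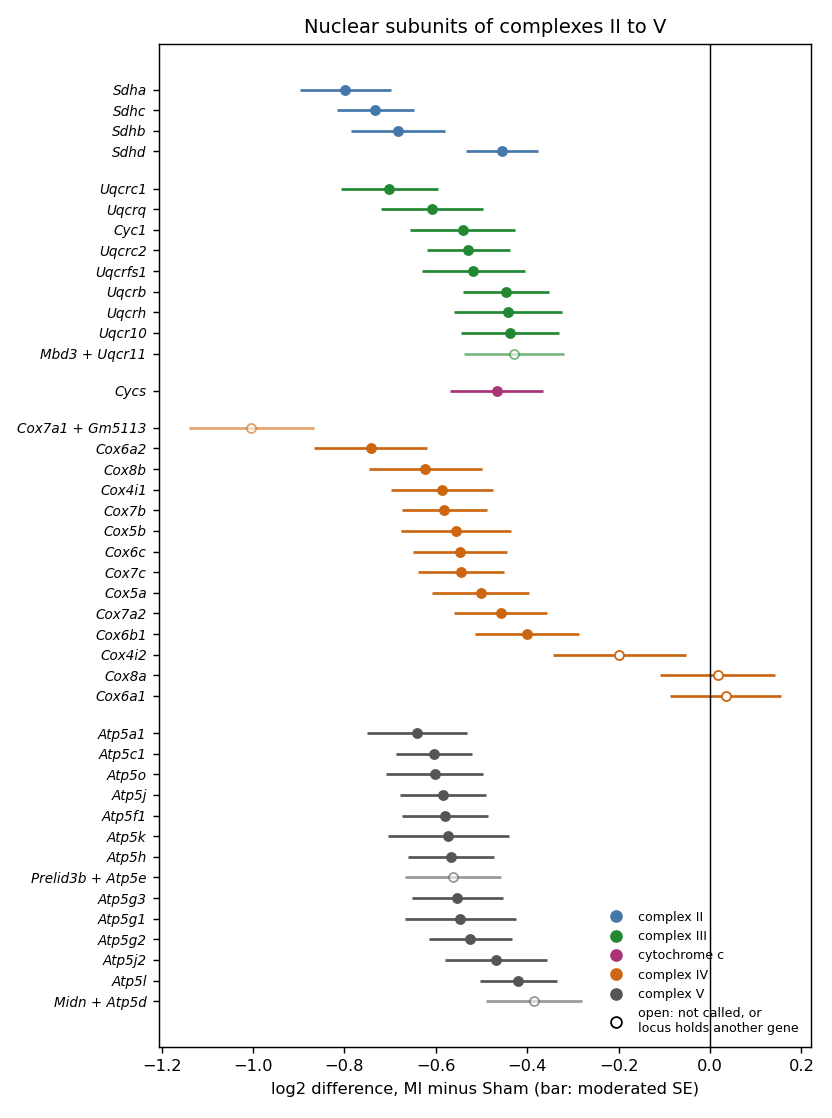
Log2 difference, MI minus Sham, with its moderated standard error for each gene, grouped by complex and ordered within it. Filled points passed the test; open points are Cox4i2, Cox8a and Cox6a1, which did not, and the 4 loci that hold another gene. The 35 filled points lie between -0.80 and -0.40; with total scaling Cox4i2 turns positive and Cox8a and Cox6a1 are called higher.

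Complex II fell furthest by its median. All 4 subunits were lower, with a median log2 difference of -0.71. Sdha, the flavoprotein that oxidises succinate (mm9 chr13:74458475-74487840, minus strand), held 212674, 218922, 245347 and 234110 normalised reads in the Sham libraries and 114397, 150671, 126023 and 134824 in the MI libraries. The groups were far from touching, and MI stood at 57.7% of Sham, the lowest share of any member (log2 difference -0.80, SE 0.10, adjusted p = 0.00017). Sdhb, the iron-sulfur subunit that takes the electrons on, was at 62.3% of Sham, and Sdhc, a membrane anchor, at 60.2%. Sdhd, the other membrane anchor, moved least. It had 63685, 56377, 66752 and 58179 normalised reads in Sham and 41083, 46901, 44096 and 46513 in MI, again without overlap, at 72.9% of Sham (log2 difference -0.45, SE 0.08, adjusted p = 0.0012).

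In complex III all 8 members with a locus of their own were lower, with a median of -0.52. Uqcrc1, a core protein on the matrix side (mm9 chr9:108836898-108853444, plus strand), moved most. Its Sham libraries held 174305, 156697, 193917 and 177148 normalised reads and its MI libraries 94177, 123151, 99816 and 115845. The highest MI library stayed below the lowest Sham library (log2 difference -0.70, SE 0.11, adjusted p = 0.00052). The partner core protein Uqcrc2 was at 69.3% of Sham. The subunits that carry electrons were close to it: Uqcrfs1, the Rieske iron-sulfur protein, at 69.5%, and Cyc1, cytochrome c1, at 68.8%. The small subunits spread more widely, with Uqcrq at 65.5%, Uqcrb and the hinge protein Uqcrh at 73.1% each and Uqcr10 at 73.7%. Uqcr10 had 25230, 21367, 29200 and 23798 normalised reads in Sham against 15556, 19500, 18998 and 19317 in MI, where MI replicate 1 stood well below the other 3 (log2 difference -0.44, SE 0.11, adjusted p = 0.0077). The joint locus of Uqcr11 and Mbd3 was at 74.3% of Sham (log2 difference -0.43, adjusted p = 0.010). With total scaling 5 of the 8 complex III members were called lower, and Uqcrb, Uqcrh and Uqcr10 were not.

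Cycs, the mobile carrier between complexes III and IV (mm9 chr6:50512562-50516473, minus strand), held 108447, 104079, 139768 and 112665 normalised reads in Sham and 76485, 87393, 83515 and 87226 in MI. Sham replicate 3 was high, and the other 3 Sham libraries also lay above every MI library. MI stood at 72.0% of Sham (log2 difference -0.47, SE 0.10, adjusted p = 0.0041), and with total scaling Cycs missed the threshold (-0.16, adjusted p = 0.055).

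Complex V was the most uniform of the complexes with more than 4 members. All 12 members with a locus of their own were lower, with a median of -0.57 and a range of -0.64 to -0.42. Atp5a1, the alpha subunit of the catalytic head, had 647500, 639206, 726398 and 685215 normalised reads in Sham and 382631, 484384, 414184 and 453588 in MI. No other member had as many reads in either group, and the groups were separate (log2 difference -0.64, SE 0.11, adjusted p = 0.0010). In the central stalk Atp5c1, the gamma subunit, was at 65.8% of Sham. In the peripheral stalk Atp5o, known as OSCP, was at 65.9%, Atp5j, known as F6, at 66.5%, Atp5f1, subunit b, at 66.8% and Atp5h, subunit d, at 67.4%. Thus the stalk members named here, each with a locus of its own, lay within a span of under 2 percentage points. The joint loci of Atp5d and Atp5e, given below, are not part of that span. The small membrane subunits were more spread, with Atp5k (subunit e) at 66.7%, Atp5j2 (subunit f) at 72.2% and Atp5l (subunit g) at 74.6%. Atp5l had 30803, 28459, 36239 and 33192 normalised reads in Sham and 22295, 23906, 25369 and 24386 in MI, without overlap (log2 difference -0.42, SE 0.08, adjusted p = 0.0026). With total scaling Atp5j2 and Atp5l missed the threshold. The joint locus of Atp5d and Midn was at 76.8% of Sham, and that of Atp5e and Prelid3b at 67.3%. Atp5b, the beta subunit and not among the 42, shares its locus with Baz2a, and that joint locus was at 68.2%.

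The membrane ring of complex V is built from subunit c, which 3 genes encode with the same mature protein. Atp5g1 (mm9 chr11:95930168-95936975, minus strand) held 127804, 104327, 144775 and 116245 normalised reads in Sham and 71096, 92789, 80002 and 93420 in MI. Atp5g2 held 31443, 27784, 34677 and 29528 in Sham and 18689, 21812, 21801 and 23534 in MI. Atp5g3 held 178996, 159421, 201233 and 178773 in Sham and 107559, 129000, 120369 and 132785 in MI. All 3 genes were lower without overlap, by nearly the same step (log2 differences -0.55, -0.52 and -0.55, with SE 0.12, 0.09 and 0.10 and adjusted p = 0.0048, 0.0012 and 0.0014). Their mix was compared within each library. The log2 ratio of Atp5g1 to Atp5g3 was -0.55 ± 0.08 in Sham and -0.54 ± 0.06 in MI, and that of Atp5g2 to Atp5g3 was -2.54 ± 0.04 and -2.51 ± 0.04 (exact permutation test, 2-sided, p = 0.80 and 0.37, adjusted p = 0.80 and 0.45 over the 6 isoform ratios tested).

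Complex IV was the one complex with members that did not pass. Of 13 members with a locus of their own 10 were lower, with a median of -0.54. The called members outside the isoform pairs compared here were Cox5a at 70.3% of Sham, Cox5b at 67.6%, Cox6b1 at 75.5%, Cox6c at 68.4%, Cox7b at 66.7% and Cox7c at 68.4%. Cox6b1, which sits on the side that faces cytochrome c, had the smallest called difference of all members (log2 difference -0.40, SE 0.11, adjusted p = 0.016). It was also the member called under the deposited scaling that missed the threshold with scaling outside the mitochondrial genome (-0.21, adjusted p = 0.065). Cox6b1 and Cox7b also have relatives, Cox6b2 and Cox7b2, which are not among the 42 and were left out of the ratios. Cox6b2 had 136 ± 26 normalised reads in Sham and 111 ± 10 in MI, and Cox7b2 had 11.9 ± 7.5 and 10.6 ± 3.6, and neither passed the test (adjusted p = 0.23 and 0.94). The 3 members not called, Cox4i2, Cox6a1 and Cox8a, are each 1 side of an isoform pair followed below.

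Subunit 6a sits beside the catalytic core, and Cox6a2 encodes its heart and skeletal muscle form while Cox6a1 encodes the form of most other tissues. Cox6a2 (mm9 chr7:135348949-135350168, minus strand) held 71807, 60496, 82224 and 69513 normalised reads in Sham and 35019, 46810, 39384 and 49052 in MI. The groups were separate, and the fall was the largest in complex IV among members with a locus of their own (log2 difference -0.74, SE 0.12, adjusted p = 0.00091). Cox6a1 (mm9 chr5:115794927-115800107, minus strand) held 10069, 7311, 10403 and 8233 in Sham and 8081, 8774, 9366 and 10443 in MI. Here the groups covered nearly the same range (log2 difference 0.03, SE 0.12, adjusted p = 0.85). The sign of that small difference turned when MI replicate 4, Sham replicate 2 or Sham replicate 4 was left out, and with total scaling Cox6a1 was called higher (0.34, adjusted p = 0.015). Per kilobase of transcript, Cox6a1 made up 14.3, 12.6, 13.1 and 12.4% of the sum of both genes in the Sham libraries and 21.6, 18.2, 22.1 and 20.2% in the MI libraries. Every MI library therefore had a larger share of Cox6a1 than every Sham library.

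Subunit 8, a small subunit that spans the membrane, also has a muscle form, Cox8b, and a widely expressed form, Cox8a. Cox8b (mm9 chr7:148084841-148087166, minus strand) held 37778, 32590, 47072 and 36232 normalised reads in Sham and 20621, 28289, 24515 and 26135 in MI. It was lower without overlap (log2 difference -0.62, SE 0.12, adjusted p = 0.0026). Cox8a (mm9 chr19:7285812-7293639, minus strand) held 12544, 9527, 14325 and 10460 in Sham and 10080, 11821, 12502 and 12594 in MI. Its MI libraries fell inside the Sham range (log2 difference 0.02, SE 0.13, adjusted p = 0.93). Its sign turned without MI replicate 3 or 4 or Sham replicate 2 or 4, and with total scaling it was called higher (0.32, adjusted p = 0.018). Per kilobase, the share of Cox8a in both genes was 17.9, 16.1, 16.6 and 15.9% in Sham and 24.2, 21.5, 25.0 and 24.0% in MI, again without overlap.

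**Figure D2:**
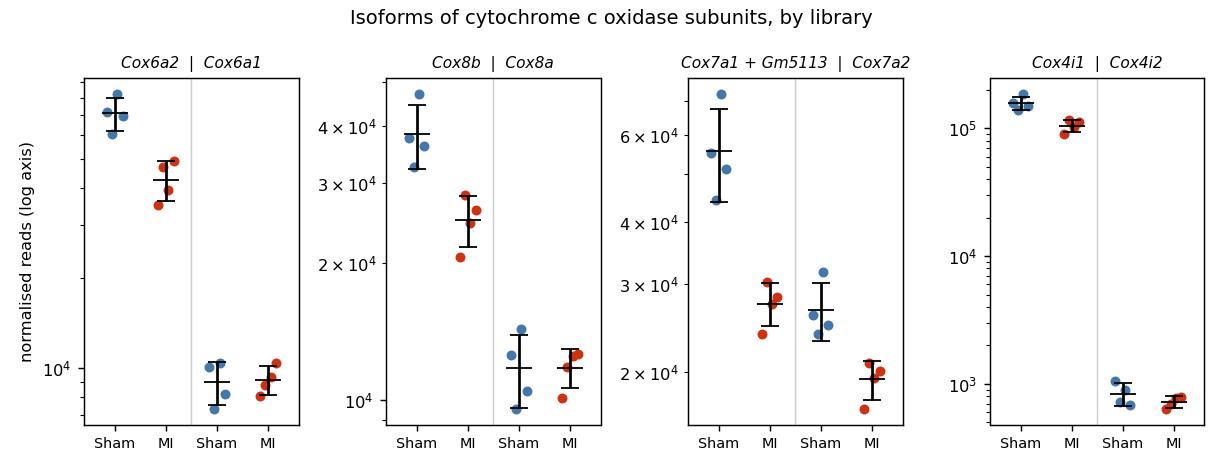
Normalised reads (log axis) of paired isoforms of complex IV subunits in each Sham (blue) and MI (red) library, with the mean and SD of each group. Cox6a2, Cox8b, Cox7a2, Cox4i1 and the joint locus of Cox7a1 and Gm5113 separate the groups, while the points of Cox6a1, Cox8a and Cox4i2 overlap; with total scaling Cox6a1 and Cox8a are called higher and Cox4i2 turns positive.

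Subunit 7a has the muscle form Cox7a1 and the widely expressed form Cox7a2. The joint locus of Cox7a1 and Gm5113 (mm9 chr7:30954941-30972060, plus strand) held 55060, 44407, 72315 and 51138 normalised reads in Sham and 23805, 30355, 27344 and 28328 in MI. It stood at 49.3% of Sham, below every one of the 38 members, though the part of each gene in it is not known (log2 difference -1.003, SE 0.137, adjusted p = 0.00028). Cox7a2 (mm9 chr9:79598379-79613375, minus strand) held 26058, 23810, 31837 and 24915 in Sham and 16859, 20902, 19490 and 20125 in MI. Unlike Cox6a1 and Cox8a it was called lower, without overlap (log2 difference -0.46, SE 0.10, adjusted p = 0.0048), a call that missed the threshold with total scaling (-0.15, adjusted p = 0.078). The share of Cox7a2 in both loci per kilobase was 22.01, 24.23, 20.80 and 22.51% in Sham and 29.7, 29.1, 29.8 and 29.8% in MI. The MI libraries lay within 1 percentage point of each other and above all Sham libraries.

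Subunit 4 has Cox4i1 in most tissues and Cox4i2, which is best known from lung and from low oxygen. Cox4i1 (mm9 chr8:123192190-123198109, plus strand) held 156567, 138455, 184676 and 150043 normalised reads in Sham and 89461, 115077, 102161 and 112216 in MI, without overlap (log2 difference -0.59, SE 0.11, adjusted p = 0.0020). Cox4i2 (mm9 chr2:152579909-152590773, plus strand) held 1060, 725, 900 and 680 in Sham and 636, 693, 781 and 790 in MI. The groups overlapped, and Cox4i2 had the widest standard error of the members (log2 difference -0.20, SE 0.15, adjusted p = 0.31, and 0.11 with total scaling). Cox4i1 made up 99.5% of both genes per kilobase in Sham and 99.3% in MI.

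A ratio of isoforms within a library does not depend on how libraries are scaled, and its difference between groups does not depend on transcript length. From Sham to MI the log2 ratio of Cox6a2 to Cox6a1 went from 2.99 ± 0.11 to 2.21 ± 0.15, a difference of -0.78. That of Cox8b to Cox8a went from 1.72 ± 0.09 to 1.08 ± 0.12, a difference of -0.64. That of the Cox7a1 joint locus to Cox7a2 went from 1.05 ± 0.12 to 0.50 ± 0.02, a difference of -0.55. Each of these 3 ratios was lower in all 4 MI libraries than in any Sham library, and each gave p = 0.0286 in a 2-sided exact permutation test, the smallest p that the 70 splits of 8 samples allow. Adjusted over the 6 ratios that is 0.0571, so none passed 0.05, and with this smallest p at least 4 of the 6 ratios would have had to reach it for any to pass. The ratio of Cox4i2 to Cox4i1 went the other way, from -7.56 ± 0.25 to -7.17 ± 0.14, with overlap (exact permutation p = 0.0571, adjusted p = 0.0857). Sham replicate 1 held the highest Sham value of that ratio, -7.21. Leaving it out removed the overlap, and all 4 complex IV ratios then had an exact permutation p adjusted to 0.0429. No ratio passed when any other library was left out, so this pass rests on the choice of that library.

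**Figure D3:**
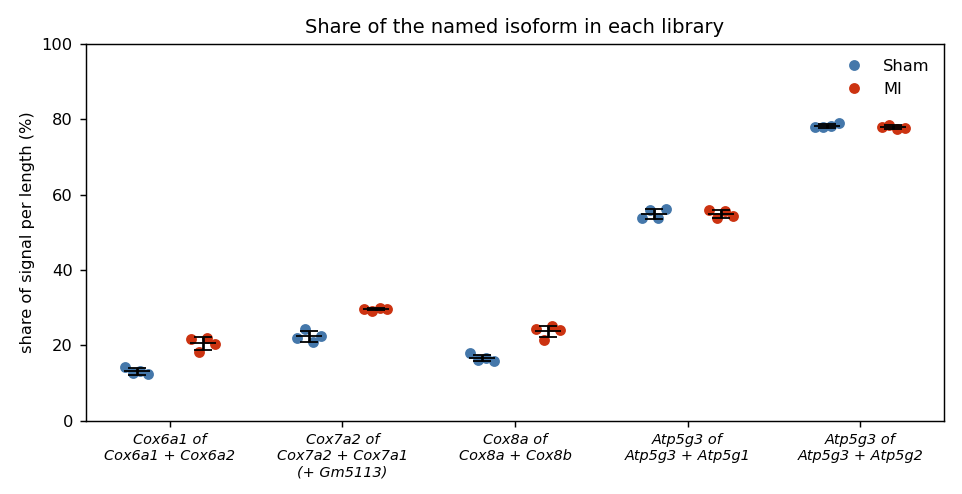
Share of 1 isoform in the summed signal per kilobase of a pair, in percent, for each Sham (blue) and MI (red) library with group mean and SD. Cox6a1 goes from a mean of 13.1% to 20.5%, Cox7a2 from 22.4% to 29.6% and Cox8a from 16.6% to 23.7% without overlap between groups, while Atp5g3 is at 55.0% and 54.9% beside Atp5g1 and at 78.2% and 77.9% beside Atp5g2.

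The shares per kilobase do depend on the length taken for each transcript. With the lengths of the deposited annotation, tried after the data were seen, Cox6a1 was at 13.5% in Sham and 21.1% in MI, Cox7a2 at 19.0% and 25.5% and Cox8a at 16.0% and 22.8%. Atp5g3 beside Atp5g1 was then at 91.0% in both groups, since the length of Atp5g1 went from 596 to 4704 bases. Atp5g3 had the higher level per kilobase with either length, but how far it stood above Atp5g1 rests on the length chosen.

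Upstream sequence was compared for the members found in a RefSeq table of promoters (GRCm38.p6), which held 28 of the 38. Sdhc, Uqcrc2, Uqcrb, Uqcrq, Cyc1, Cox4i1, Cox4i2, Cox6a2, Cox6c and Atp5a1 were not matched. The 250 bases before each start were searched on both strands for short motifs named after factors known to act on respiratory genes. The core of the nuclear respiratory factor 1 motif, GCGCATGCG, which overlaps itself on the opposite strand, was present in 5 of 28 members (17.9%) against 1.64% of 27025 genes. The 5 were Cycs, Cox6a1, Atp5g2, Atp5k and Atp5l. The ETS motif CCGGAAG was present in 7 members (25.0% against 7.83%), the oestrogen-related receptor motif AAGGTCA in 2 (7.14% against 4.70%), the YY1 motif AAGATGG in 1 (3.57% against 5.18%), the Sp1 motif GGGCGG in 6 (21.4% against 35.4%) and the TATA box TATAAA in 1 (3.57% against 14.3%). Members held a median of 15 CpG sites in these windows against 6 over all genes. The genes behind the motif shares were not matched for CpG sites, and the part of CpG content in these shares was not tested.

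The windows below show Cox8a and Cox8b, the complex IV isoform pair of which both were in the table and only 1 was called, then Cox6a1, not called, beside Cycs and Atp5k, both called lower and both with the same NRF1 core. Capitals mark matches to the motifs above, on either strand, and each window is read 5′ to 3′ on the strand of the gene. Their places in GRCm38.p6, all on the minus strand, are chr19:7217617-7217866 for Cox8a, chr7:140900447-140900696 for Cox8b, chr5:115348959-115349208 for Cox6a1, chr6:50566570-50566819 for Cycs and chr5:108434400-108434649 for Atp5k.
Cox8a: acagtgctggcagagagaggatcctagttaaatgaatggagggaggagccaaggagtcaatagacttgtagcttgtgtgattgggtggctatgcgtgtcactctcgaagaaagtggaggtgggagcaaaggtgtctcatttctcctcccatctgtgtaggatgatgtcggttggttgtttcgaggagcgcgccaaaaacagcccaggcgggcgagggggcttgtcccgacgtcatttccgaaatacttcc
Cox8b: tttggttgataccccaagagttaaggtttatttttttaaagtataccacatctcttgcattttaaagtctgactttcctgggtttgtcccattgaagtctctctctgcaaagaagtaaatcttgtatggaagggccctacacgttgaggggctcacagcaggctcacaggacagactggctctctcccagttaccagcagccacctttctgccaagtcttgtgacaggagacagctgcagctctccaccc
Cox6a1: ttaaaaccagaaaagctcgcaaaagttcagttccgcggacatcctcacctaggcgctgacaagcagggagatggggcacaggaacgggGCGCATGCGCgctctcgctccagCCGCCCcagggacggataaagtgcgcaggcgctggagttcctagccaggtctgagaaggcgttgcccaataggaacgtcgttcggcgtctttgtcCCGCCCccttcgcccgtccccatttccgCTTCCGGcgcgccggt
Cycs: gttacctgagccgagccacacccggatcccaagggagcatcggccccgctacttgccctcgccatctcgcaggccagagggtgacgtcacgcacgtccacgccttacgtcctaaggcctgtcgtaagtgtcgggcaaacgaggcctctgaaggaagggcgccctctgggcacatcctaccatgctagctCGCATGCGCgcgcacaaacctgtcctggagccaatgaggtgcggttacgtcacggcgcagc
Atp5k: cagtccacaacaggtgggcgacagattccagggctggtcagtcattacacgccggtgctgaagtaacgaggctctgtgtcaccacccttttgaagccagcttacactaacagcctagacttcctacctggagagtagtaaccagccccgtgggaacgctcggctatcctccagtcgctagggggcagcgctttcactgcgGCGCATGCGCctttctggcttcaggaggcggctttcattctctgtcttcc

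Cox8a had 11 CpG sites in its window and Cox8b had 1, and neither window held any of the 6 motifs. Cox6a1 had 26 CpG sites, an NRF1 core from position -162 counted from the start, 2 Sp1 motifs and an ETS motif. The NRF1 core of Cycs lay from position -61 and that of Atp5k from position -50. Thus the core stood upstream of members that were called lower and of 1 that was not, and the letters do not show whether a factor is bound.

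The libraries of a group moved together across the members. Sham replicate 3 was the highest Sham library in 37 of 38 members and Sham replicate 2 the lowest in 36, while MI replicate 1 was the lowest MI library in all 38. The highest MI library was MI replicate 2 in 23 members, MI replicate 4 in 11 and MI replicate 3 in 4. As a median over the members, Sham replicates 1 to 4 stood at 98.6, 88.5, 115.7 and 97.1% of the Sham mean, and MI replicates 1 to 4 at 59.7, 73.0, 68.7 and 72.4%. Complex II kept to the low side in every MI library, with medians of 54.2, 68.1, 59.3 and 64.2%, against 62.2, 75.3, 67.3 and 74.0% for complex III, 59.8, 73.1, 70.3 and 73.1% for complex IV and 59.5, 71.4, 67.8 and 70.4% for complex V. In each MI library the complex II median was the lowest of the 4 complexes, and these medians share libraries and scaling, so no test was made of them.

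**Figure D4:**
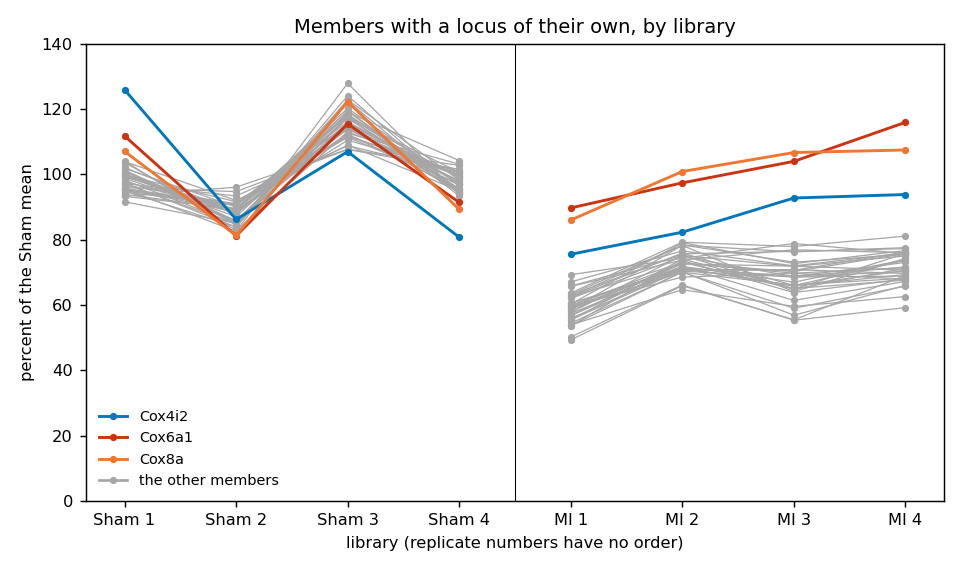
Level of each of the 38 members in each library as a percent of its Sham mean, with Cox4i2, Cox6a1 and Cox8a coloured and the other 35 in grey; lines join the values of 1 gene only to show that libraries shift together. The grey points of every MI library lie at or below 81.1%, Sham replicate 3 is high and MI replicate 1 is low for nearly all genes; scaling to library totals raises all MI points.

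The 38 members together took 2.79% to 3.27% of the reads outside the mitochondrial genome in Sham and 2.16% to 2.41% in MI. Within each group the libraries ranked in the same order by this share and by the share of all reads that came from the mitochondrial genome, which was 29.2% to 32.3% in Sham and 23.8% to 26.1% in MI. Some other subunits of complexes III, IV and V are encoded by the mitochondrial genome. Of the 8 tested loci on it, 6 were called lower, and the log2 differences of all 8 lay between -0.99 and -0.54. Which genes these 8 loci hold is not given here.

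Between members, levels were compared per kilobase of the principal transcript. Atp5a1 led in Sham with 272999 ± 16159 normalised reads per kilobase, followed by Atp5g3 with 251549 ± 23936, Cox4i1 with 211323 ± 26368, Atp5g1 with 206859 ± 28919 and Atp5o with 202904 ± 23002. Atp5g3 stood above Cox4i1 by more than either SD, and each other neighbouring pair among these 5 differed by less than the larger of its 2 SDs. At the other end stood Cox8a with 21299 ± 3909, Sdhc with 17174 ± 1428, Cox6a1 with 15769 ± 2588 and Cox4i2 with 1157 ± 239. With the lengths of the deposited annotation Atp5a1, Atp5g3 and Cox4i1 still led and Cox4i2, Cox6a1 and Cox8a were still among the 4 lowest, but Atp5g1 went from place 4 to place 34, Uqcrq from 32 to 37 and Sdhc from 36 to 31. Of the members low per kilobase, Uqcrq and Sdhc were both lower in MI without overlap, and Sdhc had the smallest adjusted p of all members (9.8e-05). The test used reads per locus, and there the 3 members not called had the lowest Sham means. These were 841 normalised reads for Cox4i2, 9004 for Cox6a1 and 11714 for Cox8a, with Uqcrq next at 17316. The part of level in the missed calls was not tested. Across the 38 members the Spearman correlation of the Sham level per kilobase with the log2 difference was -0.50 (-0.42 with the other lengths), and that of transcript length was -0.26. Both describe genes measured in the same 8 libraries, which are not independent points.

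Reads of some members can be shared with near copies elsewhere in the genome. Transcripts of other genes with at least 95% identity over at least 50% of the length were found for Atp5l (9), Atp5h (4), Uqcrb (3), Atp5g2 (2), and Atp5c1, Atp5g1, Atp5k, Atp5o and Cox7c (1 each), so the values of these 9 members are less certain. The match of Atp5o was to the gene Donson at 100% identity, and whether that is a separate copy was not checked. No such copy was found for the isoforms of subunits 4, 6a, 7a and 8. The locus of Atp5j2 also holds a transcript of 1 exon whose gene could not be checked.

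Genes that work with complexes II to V were followed from lists. Of 11 tested other subunits and close partners, 7 were lower, 0 higher, with a median of -0.36. Among those called Atp5s, a factor linked to ATP synthase coupling, moved most, from 2285 ± 249 to 1609 ± 106 normalised reads (log2 difference -0.50, SE 0.09, adjusted p = 0.0016). Atpif1, the inhibitor that blocks ATP hydrolysis by complex V, was at 116.9% of Sham with overlapping groups (log2 difference 0.23, SE 0.08, adjusted p = 0.054), and is named here after its value was seen.

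Of 32 tested assembly factors 23 were lower, 0 higher, with a median of -0.36. For complex II this was 3 of 3, led by Sdhaf4 (log2 difference -0.35, adjusted p = 0.034), whose groups overlapped and whose call was lost when MI replicate 1 or 3 or Sham replicate 1 or 3 was left out (adjusted p up to 0.091). For complex III it was 5 of 6, led by Ttc19, which helps clear fragments of the Rieske protein (log2 difference -0.48, SE 0.07, adjusted p = 0.00053). For complex IV it was 10 of 18, led by Lrpprc, which stabilises mitochondrial mRNAs, from 38252 ± 1605 to 24487 ± 2230 normalised reads (log2 difference -0.65, SE 0.08, adjusted p = 0.00012). For complex V it was 5 of 5, led by Fmc1 (log2 difference -0.71, SE 0.11, adjusted p = 0.00049). With total scaling the counts of assembly factors lower were 0, 1, 2 and 2 for complexes II, III, IV and V. With scaling outside the mitochondrial genome they were 0, 2 and 6 for complexes II, III and IV, while that of complex V changed less. Sdhaf4 missed the threshold under that scaling too (log2 difference -0.15, adjusted p = 0.23).

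**Figure D5:**
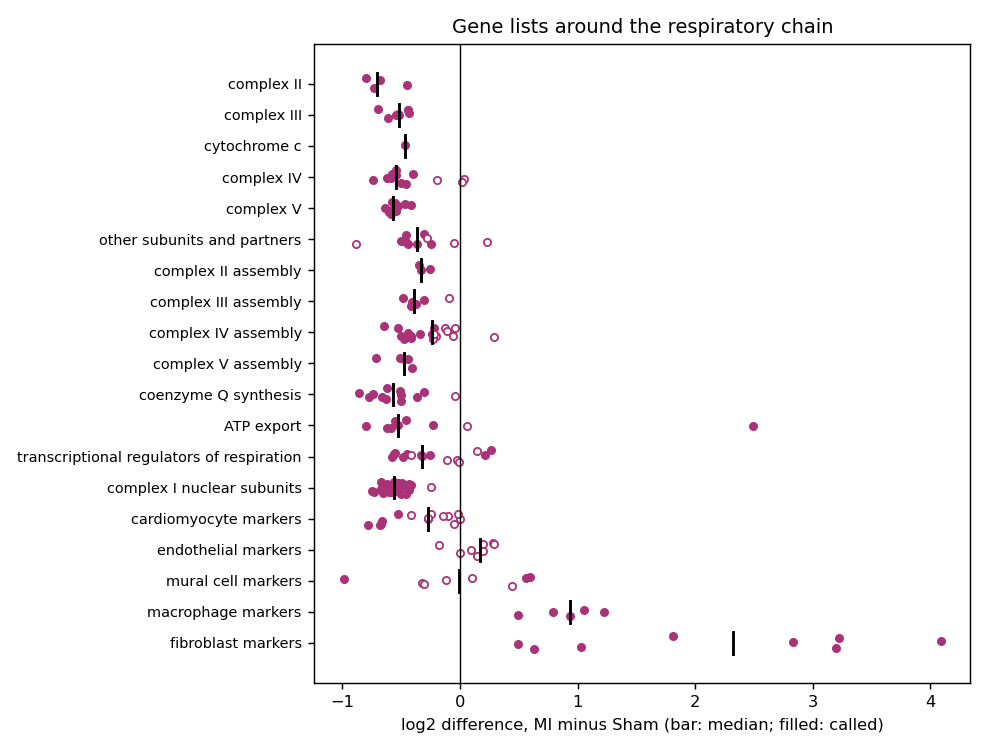
Log2 difference, MI minus Sham, of each tested gene in the 5 member groups, in lists of genes that work with them and in cell type markers; filled points passed the test and the bar is the median of a list. Members, complex I and coenzyme Q genes lie mostly between -0.9 and -0.4, markers of fibroblasts and macrophages lie above 0; total scaling moves all points up by about 0.31.

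Coenzyme Q carries electrons from complexes I and II to complex III. Of 12 genes for its synthesis and handling 11 were lower, with a median of -0.57, led by Coq10a at 55.1% of Sham (log2 difference -0.86, SE 0.10, adjusted p = 0.00011). Of 9 genes listed around the export of ATP and its energy from the mitochondrion, not all of them exporters, 7 were lower and 1 higher. Slc25a31, a carrier best known from testis, had the largest fall on the log2 scale, but at only 58.0 ± 7.4 against 34.9 ± 15.1 normalised reads, with overlap, and its call held in 1 of 8 fits that left out a library (log2 difference -0.80, SE 0.29, adjusted p = 0.047, range over those fits 0.011 to 0.12). Ckmt1, the mitochondrial creatine kinase of non-muscle tissues, was the gene called higher, from 16.7 ± 3.4 to 98.5 ± 20.1 normalised reads without overlap (log2 difference 2.49, SE 0.23, adjusted p = 3.1e-05). Slc25a4, the ADP/ATP carrier of heart and muscle, fell to 65.3% of Sham (log2 difference -0.62, SE 0.13, adjusted p = 0.0029), while its widely expressed relative Slc25a5 was at 103.0% with overlap (0.06, SE 0.12, adjusted p = 0.73, and called higher with total scaling at 0.37, adjusted p = 0.0076). This pair was singled out after its values were seen.

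Among 15 tested transcriptional regulators of respiration 8 were lower and 2 higher, with a median of -0.32. Perm1, a muscle regulator of oxidative genes, moved most, from 68647 ± 4454 to 46275 ± 6053 normalised reads (log2 difference -0.58, SE 0.10, adjusted p = 0.0011). Pprc1, a relative of the coactivator Ppargc1a, was higher (0.27, SE 0.09, adjusted p = 0.044), as was Gabpb1, a partner of the ETS factor Gabpa (0.21, SE 0.07, adjusted p = 0.028). These calls were lost in 6 and 4 of the 8 fits without 1 library, with adjusted p up to 0.12 for Pprc1 and 0.072 for Gabpb1, and Gabpb1 also missed the threshold with the replicate number as a block (adjusted p = 0.051). The losses for Pprc1 came without MI replicate 2, 3 or 4 or Sham replicate 1, 2 or 4, and those for Gabpb1 without MI replicate 1 or 3 or Sham replicate 1 or 4. Ppargc1a itself did not pass (-0.11, SE 0.23, adjusted p = 0.73). Of 29 tested nuclear subunits of complex I 28 were lower, with a median of -0.56, close to that of the members, and Ndufs7 moved most (-0.75, SE 0.11, adjusted p = 0.00054). With total scaling 18 of them were called lower.

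In whole tissue, fewer cardiomyocytes and less RNA per cardiomyocyte cannot be told apart. Of 14 cardiomyocyte markers with a locus of their own 6 were lower, with a median of -0.27, and their summed signal was 7833359 to 8618188 normalised reads in Sham and 5750587 to 6777861 in MI. The members were set against these markers in each library in 2 ways. With each gene first taken against its own Sham mean, the median log2 value of the members minus that of the markers was -0.05 to 0.11 in Sham and -0.28 to -0.25 in MI, so the members stood lower against the markers in every MI library; this measure was added after the data were seen. With the median log2 levels themselves, where the marker side rests on the middle genes of 14, the difference was -3.19 to -2.77 in Sham and -3.16 to -3.04 in MI, and the groups overlapped. All 8 fibroblast markers, Postn and Col1a1 among them, were higher, with a median of 2.32 and a summed signal of 107998 to 161994 in Sham and 589370 to 913855 in MI. All 5 macrophage markers with a locus of their own were higher, with a median of 0.94 and a sum of 13459 to 20010 in Sham and 24176 to 32190 in MI. None of the 8 endothelial markers passed, with sums of 128906 to 172281 in Sham and 145681 to 170063 in MI. Of 8 mural cell markers 1 was lower and 2 higher, with sums of 207147 to 235277 in Sham and 175890 to 212570 in MI. No marker was at 0 in any library. The part of these cell types in the levels of the members and in the isoform ratios was not tested.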

How the data were processed

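Per the labels, total RNA was extracted with Trizol, selected for poly(A) and sequenced in pairs of 100 bases. The submitters' processing notes name HTSeq 0.5.4p2, TopHat2 2.0.5, DESeq and Cufflinks 2.0.2 on build mm9; what each did, and whether strand was used, is not given in the sources used here. The authors deposited a normalised signal per locus and library. All values (100%) were whole multiples, within 1e-06, of 1 step per library, so reads were rebuilt. Groups came from the titles, which match the treatment field; the source field and some descriptions name the other group. No 2 libraries of a group were duplicates (chi-square per degree of freedom 27.2 to 115.2).

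Loci were named from exon and intron lengths in GENCODE M21, with no coordinates converted. limma 3.58.1 (R 4.3.3) was run on log2(value + 1) over loci with a mean of at least 10, 4 against 4, 2-sided. Errors beside differences are moderated SE. Near copies were sought with blastn 2.17.0. The limma step was tested on simulated data. Alternatives used other pseudocounts, filters, scalings and libraries, edgeR 4.0.16, DESeq2 1.42.0 and voom on rebuilt reads, and a replicate block. Python 3.11.15, scipy 1.17.1 and matplotlib 3.10.9 did the rest. Members and lists were chosen with earlier results of these data known. Members of isoform sets and, in each complex, those with the largest and smallest differences are given in full, and of each pathway list the called gene of largest change and every gene called higher.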

Additional observations from a re-analysis of the deposited data

Results flagged for a closer look

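In 5 of the 96 groups of 4 libraries examined (42 loci and 6 isoform ratios, each in Sham and in MI), 1 library lay far from the other 3, with a gap to its neighbour that took more of the group's range than Dixon's 95% critical value. Chance gives about 1 such group in 20. All 5 were low values of MI replicate 1: 28751 normalised reads for Uqcrh, 15556 for Uqcr10, 38851 for Cox6c, 35763 for Cox7b and 21811 for Atp5k. MI replicate 1 was the lowest MI library for all 38 members and also the deepest library, at 190.2 M reads. Without it the same count of 35 members was lower, with a median log2 difference of -0.48 in place of -0.55.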

How the results depend on the processing

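Of 38 members, 35 were lower under TMM and upper-quartile scaling, other pseudocounts and filters, a robust fit, edgeR, DESeq2 and voom, and in each fit without 1 library (35 to 35 lower, 0 to 0 higher, and 4, 8, 10 and 12 in complexes II, III, IV and V). Scaling to the library total gave 27 lower and 2 higher, with 5 in complex III, and turned Cox4i2 to 0.11. The differences near 0 changed sign without 1 library: Cox6a1 ranged from -0.061 to 0.109, Cox8a from -0.077 to 0.120 and Slc25a5 from -0.027 to 0.159. Without 1 library the log2 ratios ranged from -0.85 to -0.73 for Cox6a2 to Cox6a1, -0.60 to -0.50 for Cox7a1 to Cox7a2, -0.70 to -0.60 for Cox8b to Cox8a, 0.31 to 0.51 for Cox4i2 to Cox4i1, -0.018 to 0.031 for Atp5g1 to Atp5g3 and 0.01 to 0.05 for Atp5g2 to Atp5g3. The cause of these changes was not tested. Correlations of libraries with the same replicate number in the titles were 0.15, 0.27, 0.16 and -0.00092. Those of libraries with different numbers ran from -0.39 to 0.28, so these values do not settle whether the numbers pair the libraries. A fit with the numbers as a block gave 35 members lower and 4056 loci lower against 4152 higher. Of the named pathway genes the call of Gabpb1 was lost (0.21, adjusted p = 0.051). For the ratios the block says nothing on stability: its differences (-0.78, -0.55 and -0.64 for the 3 muscle isoforms) equal the unblocked ones by construction, and with 4 pairs no ratio could pass (smallest adjusted p 0.1875). Cox4i2, at 431 to 959 reads, had the fewest reads of the members. The part of depth in its wide standard error was not tested.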
